A study of Homo sapiens with 8 samples.

Results

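The genes of the pyruvate dehydrogenase complex and of the enzymes that switch it off and on were followed in A549, a human cell line grown from a lung adenocarcinoma. The 10 genes were chosen by membership, with earlier results of these data known. They are the kinases PDK1, PDK2, PDK3 and PDK4, the phosphatases PDP1 and PDP2, and the subunits PDHA1, PDHB, DLAT and PDHX. Of these, 9 had at least 1 probe set (a group of short probes read as 1 signal) that the array annotation ties to that gene alone, 24 probe sets in all, among 19775 genes with such a probe set. PDP2 was not analysed here. Cells were transfected with a small interfering RNA (siRNA) against steroid receptor coactivator 1 (SRC-1, the product of NCOA1) or with a control siRNA. They were kept for 36 h in medium with 10% dialyzed serum, then moved to DMEM with or without glucose, again with 10% dialyzed serum. The 4 groups thus had glucose after SRC-1 siRNA, glucose after control siRNA, no glucose after SRC-1 siRNA and no glucose after control siRNA, and each had 2 Affymetrix arrays labelled as biological replicates. All cells were transfected and kept in dialyzed serum, all came from 1 cell line, and neither untransfected cells nor a second siRNA is among the groups. The glucose concentration and the time in the last medium are not given in the sources used here. The design asks how SRC-1 loss alters expression in each medium.

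The pyruvate dehydrogenase complex sits in the mitochondrial matrix and turns pyruvate into acetyl-CoA, with release of carbon dioxide and reduction of NAD+ to NADH. PDHA1 and PDHB form the enzyme that decarboxylates pyruvate, DLAT is the core that carries the lipoyl arm and makes acetyl-CoA, and PDHX anchors the last enzyme, DLD, to that core. The PDK kinases phosphorylate the PDHA1 protein and stop the complex, and the PDP phosphatases remove the phosphate and restart it, so pyruvate is steered between lactate and the tricarboxylic acid (TCA) cycle.

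All values are signals per probe set as deposited, used on the log2 scale, and arrays of 1 group correlated at 0.997 to 0.998 over genes. The targeted mRNA was read first. NCOA1 had log2 signals of 5.47 and 5.18 with SRC-1 siRNA and glucose, against 8.60 and 8.42 with control siRNA and glucose. Without glucose it had 5.22 and 5.09 with SRC-1 siRNA, against 8.34 and 8.24 with control siRNA. The SRC-1 siRNA arrays lay below the control arrays in both media, 9.10-fold lower with glucose and 8.78-fold lower without (adjusted p = 1.44e-05 and 1.65e-05, limma). All 6 epithelial keratin and adhesion markers (KRT7, KRT8, KRT18, KRT19, EPCAM and CDH1) had mean log2 signals between 8.09 and 14.32, with 4 at or above 10. KRT19 and KRT8 were higher with glucose under SRC-1 siRNA (0.47 and 0.28) and control siRNA (0.57 and 0.28), and KRT7 was lower (-0.34 and -0.38). Of 6 fibroblast markers, 4 passed the limit for dim probe sets (log2 4.80), with none at or above 10 and the highest mean at 7.88. Of 3 leukocyte markers with a probe set, 1 passed. The mean log2 signal over the fibroblast markers was 5.43 and 5.37 with glucose (SRC-1 and control siRNA) and 5.21 and 5.26 without, and for leukocyte markers 4.08 and 4.15 with glucose and 4.09 and 4.04 without. Of the 4 fibroblast markers that passed, LUM was higher with glucose, by 0.75 ± 0.15 under SRC-1 siRNA and 0.64 ± 0.15 under control siRNA (adjusted p = 0.00393 and 0.009), and COL1A1, DCN and PDGFRB were not called. The difference between 3' and 5' probe sets of GAPDH, a sign of RNA quality, was 0.14 to 0.17 with glucose and 0.12 to 0.14 without, and that of ACTB 0.51 to 0.64 and 0.41 to 0.54. These differences between the media did not pass a two-sided exact permutation test (p = 0.0571 for GAPDH and 0.143 for ACTB, n = 4 arrays each, smallest possible p 0.0286). Their part in the results below was not tested.

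With glucose, the kinases PDK4 and PDK3 rose and the phosphatase PDP1 fell, while the kinases PDK1 and PDK2 were not called. PDK4 was 3.80-fold higher with glucose than without it under SRC-1 siRNA and 3.74-fold higher under control siRNA, and PDK3 was 2.04-fold and 2.20-fold higher. PDP1 went the other way and was 1.95-fold and 2.23-fold lower. On their brightest probe sets the subunits differed by 1.33-fold at most. With SRC-1 siRNA, 5 of the 9 measured genes rose and 1 fell at an adjusted p of 0.05 (limma, Benjamini-Hochberg over 13584 genes), beside 24.6% of all genes higher and 20.0% lower. With control siRNA, 3 rose and 1 fell, beside 23.6% and 21.6% of all genes. The median log2 difference of the 9 genes was 0.25 with SRC-1 siRNA and 0.16 with control siRNA, against 0.0059 and 0.00088 over all genes. Calls were this common among all genes, so the counts are read beside the size of each difference. In such bulk RNA, fewer cells with a transcript and less of it per cell cannot be told apart.

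**Figure D1:**
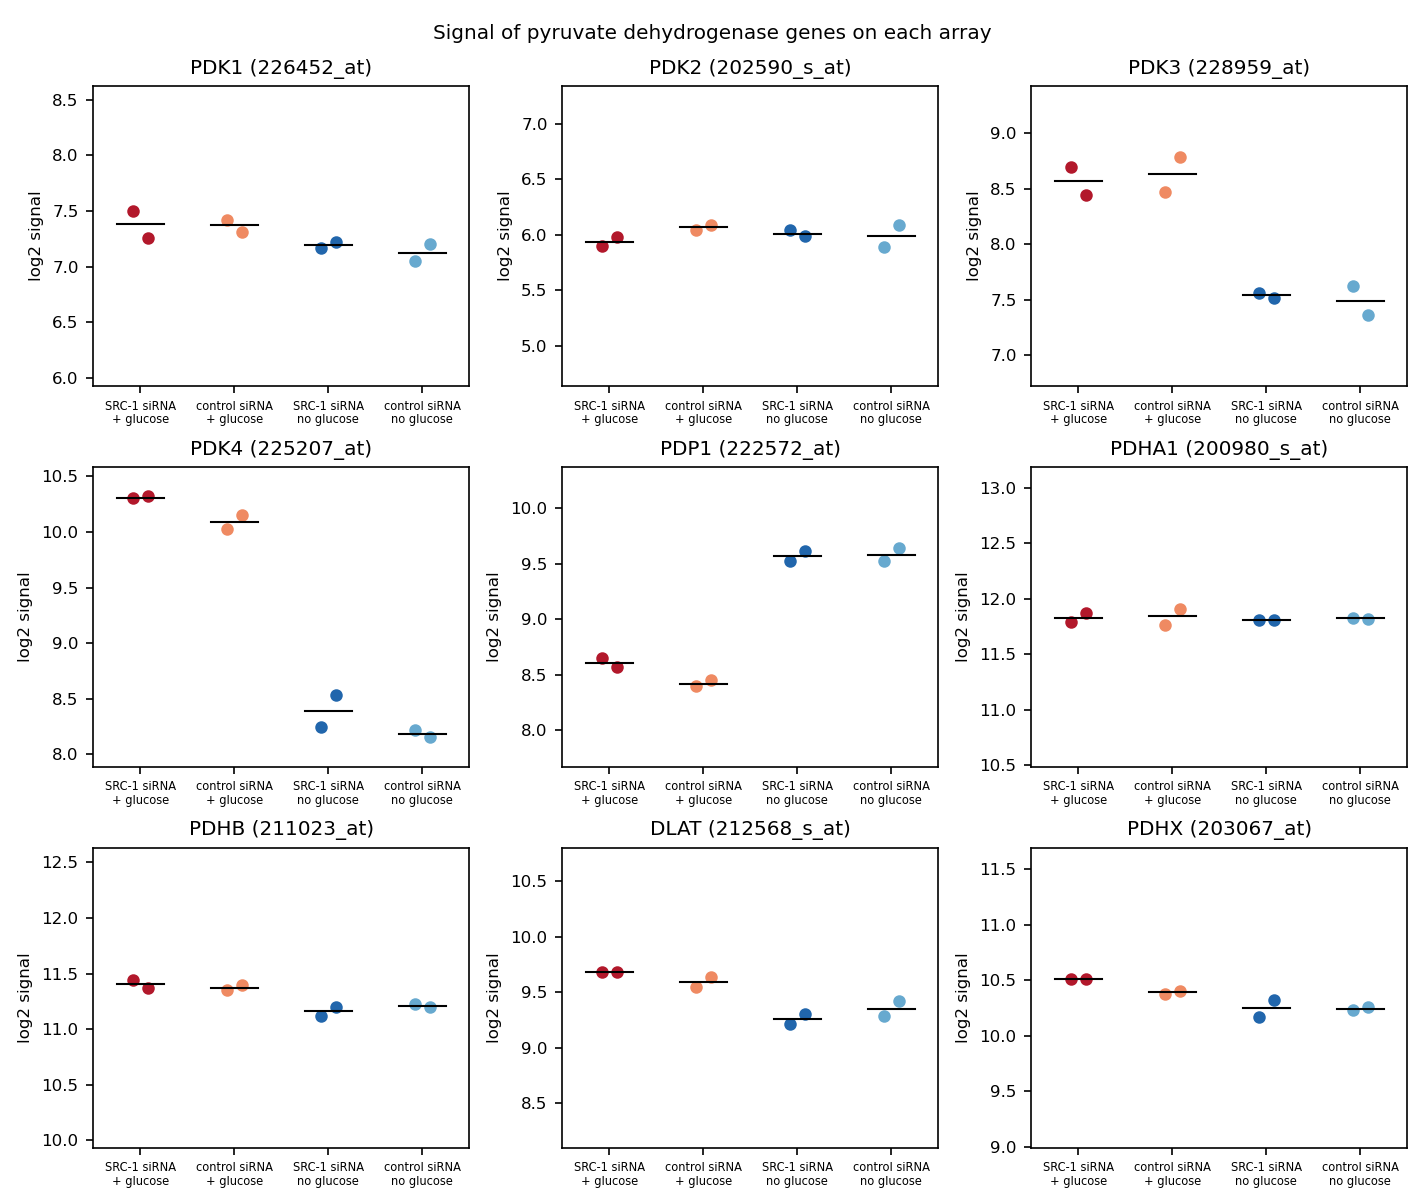
Log2 signal of the brightest probe set of each gene on all 8 arrays, by group (points are arrays, bars are means of 2 arrays, and every panel spans the same log2 range around its own level). PDK3 and PDK4 lie higher and PDP1 lower on the 4 arrays with glucose, and PDK2 and PDHA1 show no such step.

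PDK4 is the kinase best known for its control by fuel supply, induced by fasting and by fatty acids in muscle, heart and liver. Its brightest probe set had log2 signals of 10.31 and 10.32 with SRC-1 siRNA and glucose, and 10.03 and 10.15 with control siRNA and glucose. Without glucose it had 8.24 and 8.53 with SRC-1 siRNA, and 8.22 and 8.15 with control siRNA. All 4 arrays with glucose lay above all 4 without, by at least 1.78 within each siRNA. The log2 difference was 1.93 ± 0.098 (SE, n = 2 per group) with SRC-1 siRNA and 1.90 ± 0.098 with control siRNA (adjusted p = 3.67e-06 and 3.86e-06, limma). By size these differences ranked 19th and 15th from the top of 13584 genes. From lowest to highest, the groups without glucose came first (control siRNA, then SRC-1 siRNA), the groups with glucose followed (control siRNA, then SRC-1 siRNA), and no 2 neighbours in that order overlapped, although the lowest pair was only 0.026 apart.

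PDK3, a kinase with high activity that is little restrained by pyruvate, had log2 signals of 8.70 and 8.44 with SRC-1 siRNA and glucose, against 7.56 and 7.52 with SRC-1 siRNA without it. With control siRNA it had 8.47 and 8.79 with glucose, against 7.62 and 7.36 without. The arrays of the 2 media were at least 0.85 apart within each siRNA, and those of the 2 siRNAs overlapped within each medium. The log2 difference between media was 1.03 ± 0.13 with SRC-1 siRNA and 1.14 ± 0.13 with control siRNA (adjusted p = 0.00038 and 0.000222). On the brightest probe sets, PDK3 and PDK4 were called higher under both siRNAs, and the only other gene of the group for which this held was the core subunit DLAT.

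The sequence around the start site of these 3 genes is shown because their brightest probe sets were called higher with glucose under both siRNAs. The DLAT call with control siRNA is fragile, as given below. PDHB and PDHX were called higher under SRC-1 siRNA alone, with no interaction called, so the choice does not set these 3 apart. Each run covers 250 bases before to 50 after the start in RefSeq (GRCh38.p14, 5′ to 3′ on the gene's strand). PDK4 lies at chr7:95596467-95596766 (minus strand), PDK3 at chrX:24465036-24465335 (plus) and DLAT at chr11:112025158-112025457 (plus). Capitals mark matches, on either strand, to any of 8 short motifs.
PDK4: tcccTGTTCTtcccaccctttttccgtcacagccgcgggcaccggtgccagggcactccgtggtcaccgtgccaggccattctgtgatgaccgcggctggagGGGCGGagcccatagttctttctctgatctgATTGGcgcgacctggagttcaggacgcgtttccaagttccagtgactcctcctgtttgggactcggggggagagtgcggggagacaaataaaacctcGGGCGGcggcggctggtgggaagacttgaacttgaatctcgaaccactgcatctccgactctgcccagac
PDK3: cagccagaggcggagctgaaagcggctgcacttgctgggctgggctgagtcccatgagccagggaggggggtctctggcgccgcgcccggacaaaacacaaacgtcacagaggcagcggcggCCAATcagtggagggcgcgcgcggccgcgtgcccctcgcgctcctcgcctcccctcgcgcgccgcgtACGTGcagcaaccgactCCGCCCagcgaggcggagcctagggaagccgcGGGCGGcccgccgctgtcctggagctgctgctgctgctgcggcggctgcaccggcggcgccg
DLAT: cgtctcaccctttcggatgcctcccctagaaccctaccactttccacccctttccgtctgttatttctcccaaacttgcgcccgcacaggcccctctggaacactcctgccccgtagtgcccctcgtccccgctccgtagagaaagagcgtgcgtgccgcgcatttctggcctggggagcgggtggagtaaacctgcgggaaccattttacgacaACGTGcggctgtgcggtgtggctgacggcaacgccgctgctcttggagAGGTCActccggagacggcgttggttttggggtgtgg

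The motifs searched were the FOXO core GTAAACA, the nuclear receptor half-site AGGTCA, the E-box CACGTG, the HIF core ACGTG, the GC box GGGCGG, the CCAAT box, the C/EBP-ATF composite TGATGNAA and the glucocorticoid half-site AGAACA. The HIF core also lies inside the E-box. The PDK4 window held 2 GC boxes, 1 CCAAT box and 1 glucocorticoid half-site. The PDK3 window held 2 GC boxes, 1 CCAAT box and 1 HIF core, and the DLAT window 1 HIF core and 1 nuclear receptor half-site. The FOXO core, the E-box and the C/EBP-ATF composite were matched in none of the 3 windows, and no motif was matched in all of them. Of all 35116 RefSeq windows of 300 bases, 45.0% held a GC box, 34.6% a CCAAT box, 21.4% the HIF core, 14.8% the glucocorticoid half-site and 13.8% the nuclear receptor half-site. The E-box was found in 7.26%, the C/EBP-ATF composite in 3.62% and the FOXO core in 3.42%. G and C made up 60.7% of the PDK4 window, 74.3% of the PDK3 window and 62.0% of the DLAT window. A match of letters is a description and no evidence of binding.

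PDK1, the kinase induced by hypoxia-inducible factor in low oxygen, showed no call. It had log2 signals of 7.50 and 7.26 with SRC-1 siRNA and glucose, against 7.17 and 7.22 with SRC-1 siRNA without glucose. With control siRNA it had 7.42 and 7.31 with glucose, against 7.05 and 7.20 without. The arrays of the 2 media did not overlap within either siRNA, but the gaps were 0.045 and 0.12. The log2 difference was 0.19 (95% interval -0.029 to 0.40, adjusted p = 0.146) with SRC-1 siRNA and 0.24 (0.026 to 0.46, adjusted p = 0.0668) with control siRNA. The call with SRC-1 siRNA appeared when the second SRC-1 siRNA array with glucose was left out (0.31, adjusted p = 0.0399). With control siRNA it appeared without either SRC-1 siRNA array with glucose (adjusted p = 0.0393 for both) and with a filter at the 60th percentile (0.0404), at a log2 difference of 0.24 each time.

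PDK2, the most widely expressed of the kinases, stayed near log2 6 on all arrays, from 5.89 to 6.09. It had 5.90 and 5.98 with SRC-1 siRNA and glucose, against 6.04 and 5.99 with SRC-1 siRNA without it, and 6.04 and 6.09 with control siRNA and glucose, against 5.89 and 6.09 without. The log2 difference was -0.071 (95% interval -0.26 to 0.11) with SRC-1 siRNA and 0.074 (-0.11 to 0.26) with control siRNA, and neither was called (adjusted p = 0.521 and 0.499). These intervals leave out a change in signal as large as that of the brightest PDK3 or PDK4 probe set in either direction. Whether differences were compressed at this level of signal was not tested. The order of the 4 groups for PDK2 had no pair of neighbours that lay apart.

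PDP1, the calcium-stimulated phosphatase that reactivates the complex, was the one gene of the group that fell. It had log2 signals of 8.65 and 8.57 with SRC-1 siRNA and glucose, against 9.52 and 9.61 with SRC-1 siRNA without it. Under control siRNA it had 8.40 and 8.45 with glucose, against 9.52 and 9.64 without. Every array with glucose lay below every array without, by at least 0.87. The log2 difference was -0.96 ± 0.074 with SRC-1 siRNA and -1.16 ± 0.074 with control siRNA (adjusted p = 2.49e-05 and 9.92e-06). From the bottom of all 13584 genes it ranked 305th and 215th. In the order from lowest to highest, the groups with glucose came first (control siRNA, then SRC-1 siRNA) and those without glucose followed (SRC-1 siRNA, then control siRNA). The first 3 groups in that order lay apart and the last 2 overlapped.

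**Figure D2:**
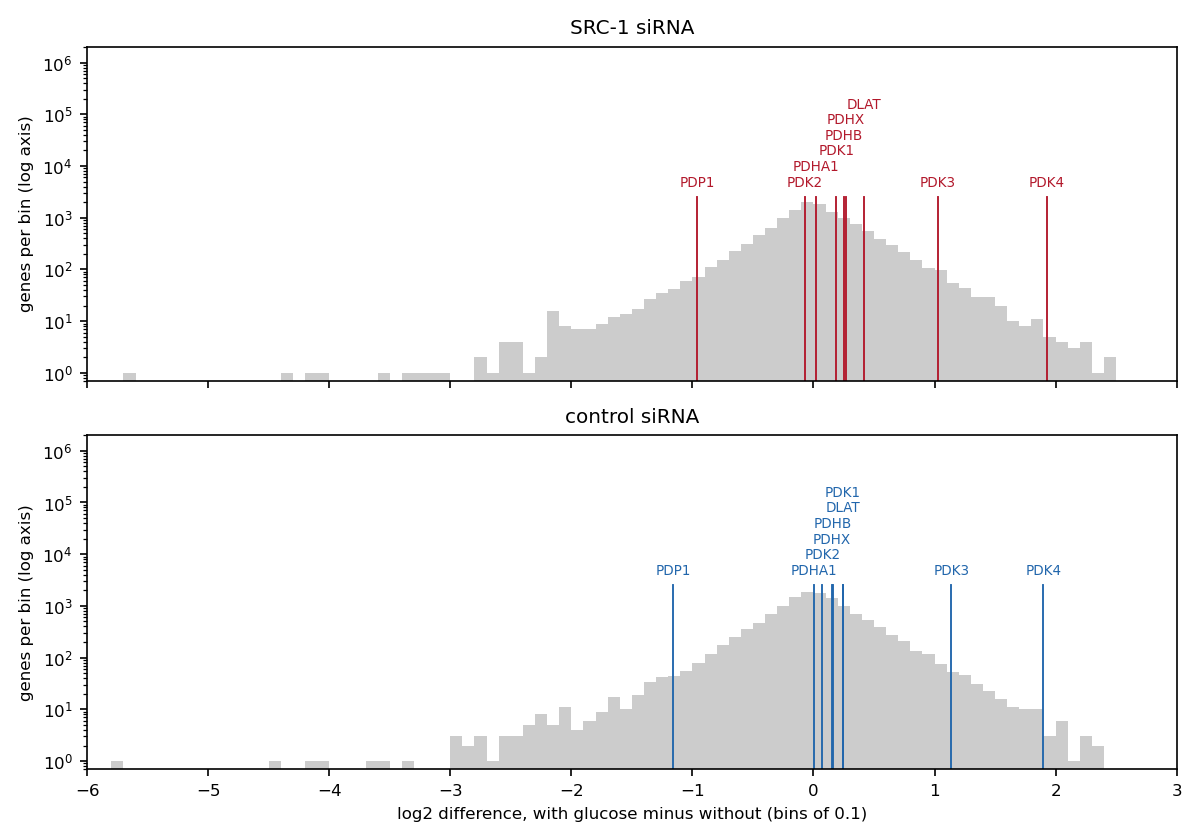
Number of genes (log axis) in bins of 0.1 of the log2 difference, with glucose minus without, for SRC-1 siRNA (upper panel) and control siRNA (lower panel), with lines at the pyruvate dehydrogenase genes. PDK4 stands in the far upper tail and PDK3 and PDP1 on opposite flanks, while the other genes lie in the bulk.

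The subunits shifted by small amounts, and most on the same side. DLAT, the acetyltransferase core, had log2 signals of 9.68 and 9.68 with SRC-1 siRNA and glucose, against 9.22 and 9.31 with SRC-1 siRNA without it. Under control siRNA it had 9.55 and 9.64 with glucose, against 9.29 and 9.42 without. The groups did not overlap within either siRNA, and DLAT rose by 0.42 ± 0.074 with SRC-1 siRNA and by 0.24 ± 0.074 with control siRNA (adjusted p = 0.00211 and 0.0285). The second call is fragile. Without the first control siRNA array that lacked glucose the log2 difference was 0.18 (adjusted p = 0.170), and without the second control siRNA array with glucose it was 0.20 (adjusted p = 0.131). It was also lost with no filter on dim probe sets (adjusted p = 0.0573) and in a fit of only the 2 groups compared (0.0545).

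PDHB, the beta subunit of the decarboxylase, had log2 signals of 11.44 and 11.37 with SRC-1 siRNA and glucose, against 11.12 and 11.20 with SRC-1 siRNA without it. After control siRNA it had 11.35 and 11.40 with glucose, against 11.23 and 11.20 without. The media lay apart in both cases, and PDHB rose by 0.25 ± 0.067 with SRC-1 siRNA (adjusted p = 0.0148), whereas with control siRNA 0.16 ± 0.067 was not called (adjusted p = 0.0791). The call with SRC-1 siRNA was lost without the first array of that siRNA lacking glucose (0.21, adjusted p = 0.0960) or without the first one with glucose (0.22, adjusted p = 0.0819).

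PDHX, the protein that binds DLD, is read by 1 probe set. It had log2 signals of 10.51 and 10.51 with SRC-1 siRNA and glucose, against 10.17 and 10.32 with SRC-1 siRNA without it. With control siRNA it had 10.38 and 10.40 with glucose, against 10.23 and 10.26 without. It rose by 0.27 ± 0.071 with SRC-1 siRNA (adjusted p = 0.0154), and its difference of 0.15 ± 0.071 with control siRNA was not called (adjusted p = 0.120). Of the 4 arrays with SRC-1 siRNA, leaving out the first without glucose gave 0.19 (adjusted p = 0.115), the first with glucose 0.27 (0.0568) and the second with glucose 0.26 (0.0581). For DLAT, PDHB and PDHX the lower 2 groups in the order of levels were those without glucose, and these overlapped each other.

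PDHA1, the alpha subunit that carries the phosphorylation sites, was level on its brightest probe set. It had log2 signals of 11.79 and 11.87 with SRC-1 siRNA and glucose, against 11.81 and 11.81 with SRC-1 siRNA without it, and 11.76 and 11.91 with control siRNA and glucose, against 11.83 and 11.82 without. The log2 difference was 0.025 (95% interval -0.14 to 0.19) with SRC-1 siRNA and 0.0084 (-0.16 to 0.17) with control siRNA, with adjusted p values of 0.813 and 0.937. The 2 media overlapped under both siRNAs, and so did every neighbouring pair of groups. This signal is among the brightest on the array (98.0th percentile of probe sets), and whether it was compressed near the top of the scale was not tested.

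**Figure D3:**
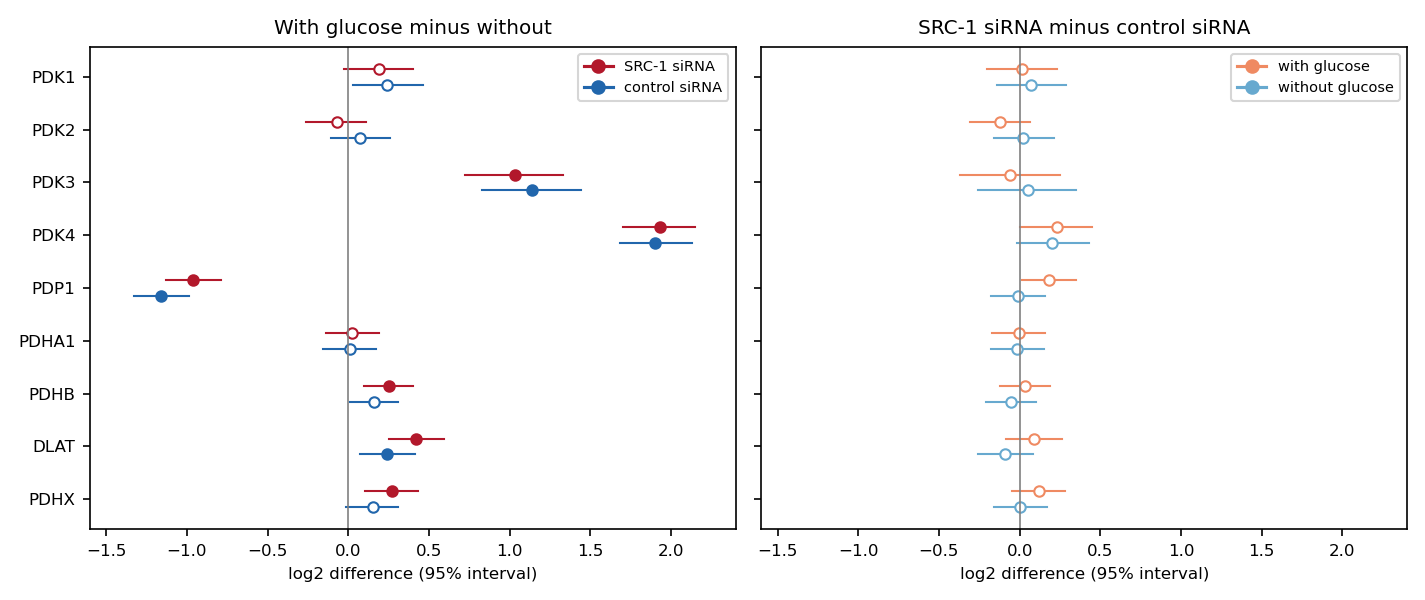
Log2 differences of the 9 genes with 95% intervals from limma, with glucose minus without under each siRNA (left) and SRC-1 siRNA minus control siRNA in each medium (right). Filled points passed an adjusted p of 0.05 over 13584 genes, open points did not, and no point on the right is filled.

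The other probe sets of these genes were read in a second fit over all 41091 probe sets with 1 gene. Of 24 probe sets, 11 rose and 2 fell with glucose under SRC-1 siRNA, beside 12.6% higher and 10.8% lower of all probe sets. Under control siRNA 9 rose and 2 fell, beside 12.4% and 11.7%. These shares include all probe sets under the dim limit, which the gene fit left out. They are therefore not a like measure for these 24, and no share was taken over the brighter probe sets alone. The count of 11 calls with control siRNA dropped to 6 without the second control siRNA array lacking glucose and to 7 without the second one with glucose. A total of 20 probe sets passed the dim limit, and the 4 dim ones belong to PDK1 and PDK4. The dim PDK1 probe set 206686_at differed with glucose by 0.21 under SRC-1 siRNA and by -0.088 under control siRNA. The other dim one, 239798_at, differed by 0.13 and 0.30. The second PDK2 probe set, 213724_s_at, differed by 0.023 and 0.04. None of these differences was called.

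All 5 probe sets of PDK3 pointed up, with log2 differences from 0.37 to 1.27 under SRC-1 siRNA and from 0.40 to 1.53 under control siRNA. Under control siRNA all 5 were called, and under SRC-1 siRNA 4 were, the exception being probe set 221957_at at 0.37 ± 0.12 (adjusted p = 0.0603). The 2 with the largest differences, 230085_at and 228959_at, had 2.41-fold and 2.04-fold higher signals with glucose under SRC-1 siRNA, and 2.89-fold and 2.20-fold higher under control siRNA. The other 3 lay between 1.30-fold and 1.47-fold. A fold for PDK3 therefore depends on the probe set read.

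The second PDP1 probe set, 218273_s_at, was also called lower under SRC-1 and control siRNA (adjusted p = 0.00363 and 0.00645). It had log2 signals of 4.63 and 3.93 with SRC-1 siRNA and glucose, against 5.81 and 5.38 without glucose, and 4.01 and 4.40 with control siRNA and glucose, against 5.29 and 5.46 without. All 4 arrays with glucose lay under the dim limit of 4.80, so no size of change is read from it. For PDHA1 the probe sets disagreed. Probe set 200979_at averaged 8.93 ± 0.11 with SRC-1 siRNA and glucose, against 8.45 ± 0.015 without glucose, and 8.88 ± 0.081 with control siRNA and glucose, against 8.58 ± 0.025 without (log2, SD, n = 2 each). It rose by 0.47 ± 0.089 (adjusted p = 0.00467) with SRC-1 siRNA and by 0.30 ± 0.089 (0.0397) with control siRNA, while 1555864_s_at differed by 0.10 and 0.04 and was not called. The control siRNA call of 200979_at did not hold without any 1 of 6 arrays (adjusted p from 0.0537 to 0.175). All 3 DLAT probe sets were called with SRC-1 siRNA (0.28 to 0.50), and with control siRNA only 213149_at was (0.41 ± 0.11, adjusted p = 0.0280). Both PDHB probe sets had differences of 0.10 to 0.25 and neither was called in this larger family of tests, nor was PDHX.

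**Figure D4:**
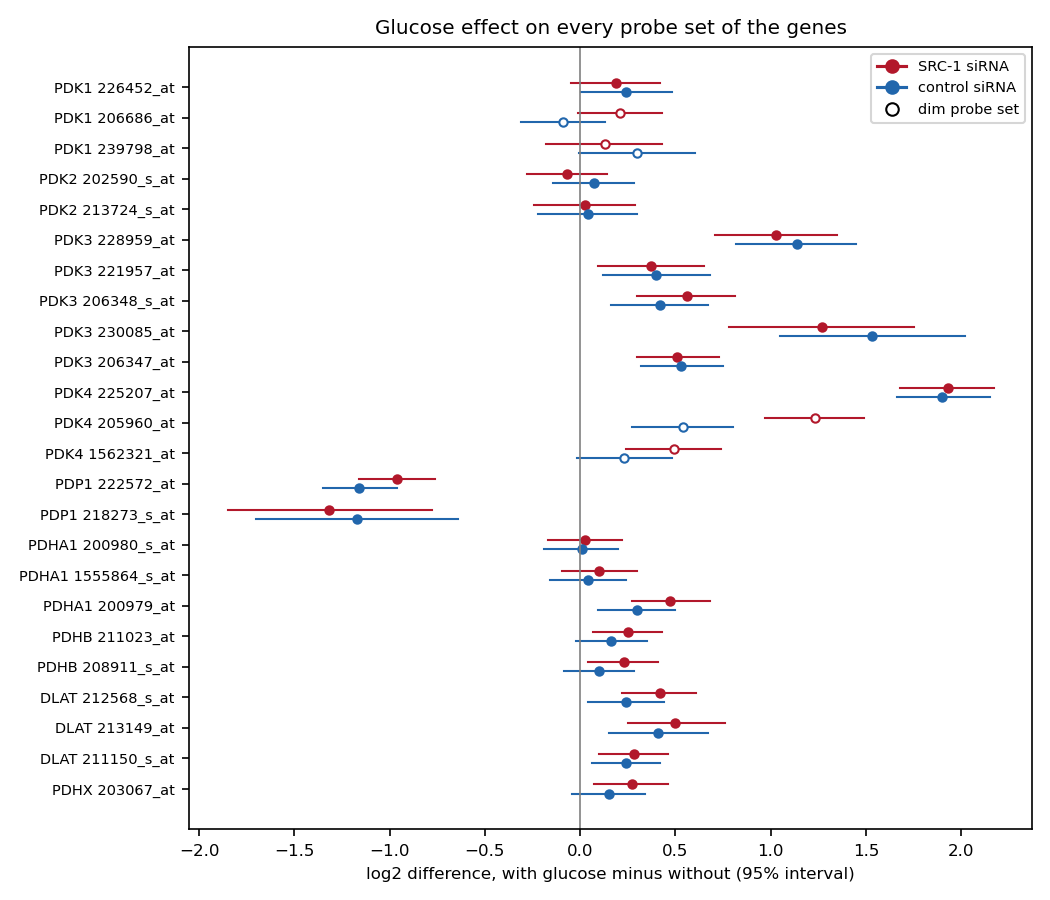
Log2 difference with 95% interval, with glucose minus without, for all 24 probe sets under SRC-1 siRNA (red) and control siRNA (blue), with open points for the 4 dim probe sets. The PDK3 probe sets spread from 0.37 to 1.53, and 1 of 3 PDHA1 probe sets lies apart from the others.

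SRC-1 siRNA called none of the 9 genes in either medium. With glucose 0 of 9 passed in limma, where 1 of all 13584 genes did (0.00736%). There 2 of 9 had an unadjusted p under 0.05, against 781 of all genes. Without glucose 0 of 9 passed, where 3 of all genes did (0.0221%), and 0 of 9 had an unadjusted p under 0.05, against 434 of all genes. Averaged over both media 0 of 9 passed, where 4 of all genes did (0.0294%). Here 1 of 9 had an unadjusted p under 0.05, against 674 of all genes. The median log2 difference of the 9 genes was 0.035 with glucose and 0.0025 without, against 0.016 and 0.00054 over all genes.

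The 2 genes with a small unadjusted p with glucose were PDK4 and PDP1. The PDK4 arrays with SRC-1 siRNA lay above those with control siRNA in both media, by 0.16 with glucose and by 0.026 without. Its log2 difference was 0.23 (95% interval 0.0025 to 0.45, adjusted p = 0.865) with glucose, 0.20 (-0.019 to 0.43, adjusted p = 0.999) without, and 0.22 (0.057 to 0.37, adjusted p = 0.929) averaged over both. PDP1 with glucose was 0.18 above control siRNA (0.015 to 0.35, adjusted p = 0.853), with a gap of 0.12 between the groups, and without glucose it differed by -0.013 (-0.18 to 0.16). For the remaining 7 genes the log2 differences lay between -0.12 and 0.12 with glucose and between -0.09 and 0.071 without. Their 95% intervals reached no further than -0.37 and 0.35, both for PDK3.

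The glucose effect was also compared between the 2 siRNAs by an interaction term. None of the 9 genes was called, as none of all 13584 was (0.0%), and 0 of 9 had an unadjusted p under 0.05, against 465 of all genes. For PDK4 the interaction was 0.022 (95% interval -0.29 to 0.34), and for PDK3 it was -0.11 (-0.54 to 0.32). PDP1 had the largest value, 0.20 (-0.042 to 0.44), followed by DLAT at 0.18 (-0.064 to 0.42). For DLAT, PDHB (0.088, -0.13 to 0.30) and PDHX (0.11, -0.12 to 0.34) the calls under 1 siRNA and weaker or missing ones under the other are therefore not shown to differ, with adjusted p = 0.999 by limma for all 6 genes named here.

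A dim PDK4 probe set behaved unlike the bright one. Probe set 205960_at had log2 signals of 5.64 and 5.49 with SRC-1 siRNA and glucose and 4.71 and 4.81 with control siRNA and glucose. Without glucose it had 4.20 and 4.48 with SRC-1 siRNA and 4.31 and 4.14 with control siRNA. It rose with glucose by 1.23 ± 0.12 under SRC-1 siRNA and by 0.54 ± 0.12 under control siRNA, and its interaction was 0.69 (95% interval 0.32 to 1.07, unadjusted p = 0.0024), which was not called over 41091 probe sets (adjusted p = 1.00, limma). With glucose the SRC-1 siRNA arrays stood 0.81 ± 0.12 above the control arrays, against 0.23 ± 0.11 on the bright probe set. The value of 0.81 ranked 1st from the top of all 41091 probe sets in that comparison. It was not called (unadjusted p = 7.71e-05, adjusted p = 0.453, limma). Its mean signal of 4.72 lies just under the dim limit, and the third PDK4 probe set, 1562321_at, is dimmer still at 3.27. With glucose the SRC-1 siRNA arrays of 1562321_at averaged 0.28 ± 0.11 above the control arrays. Its interaction was 0.25 (95% interval -0.10 to 0.61), and neither value was called.

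Genes next to the complex in the pathway were read from lists of textbook membership, also chosen with earlier results of these data known. Beside each count stands the share of all genes called, 24.6% higher and 20.0% lower with SRC-1 siRNA and 23.6% and 21.6% with control siRNA, and with so few genes per list nothing is read from a count alone. Of 11 other subunits and cofactor enzymes, 6 were tested, with 1 higher and 2 lower with glucose under SRC-1 siRNA and 1 higher and 0 lower under control siRNA (median log2 difference -0.10 and -0.05, against 0.0059 and 0.00088 over all genes). GLRX5, a glutaredoxin of iron-sulfur cluster assembly on which lipoate synthesis depends, rose by 0.29 ± 0.071 and 0.26 ± 0.071 (adjusted p = 0.00932 and 0.0162). FDX2, a ferredoxin of iron-sulfur cluster assembly, fell by 0.32 ± 0.090 with SRC-1 siRNA (adjusted p = 0.0202), and its difference with control siRNA was -0.18 ± 0.090 (0.133). LIAS, the lipoate synthase, fell by 0.22 ± 0.079 with SRC-1 siRNA (adjusted p = 0.0486), and its difference with control siRNA was -0.21 ± 0.079 (0.0612). PDPR, the regulatory subunit of the phosphatase, differed by -0.21 ± 0.085 with SRC-1 siRNA and by -0.027 ± 0.085 with control siRNA, and was not called (adjusted p = 0.0786 and 0.823).

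Of 15 genes of pyruvate import and use outside the complex, 11 were tested, and 4 were higher and 4 lower with glucose under each siRNA (median 0.11 with SRC-1 siRNA and 0.005 with control siRNA). PCK2, the mitochondrial phosphoenolpyruvate carboxykinase, was 4.47-fold lower with SRC-1 siRNA and 4.82-fold lower with control siRNA. PKM, the last enzyme of glycolysis, which makes pyruvate, was 1.44-fold and 1.32-fold higher (adjusted p = 0.00039 and 0.00179). The mitochondrial pyruvate carrier consists of MPC1 and MPC2. MPC1 fell by 0.44 ± 0.078 with SRC-1 siRNA and by 0.57 ± 0.078 with control siRNA (adjusted p = 0.00198 and 0.000498). MPC2 rose by 0.56 ± 0.088 with SRC-1 siRNA and by 0.44 ± 0.088 with control siRNA (adjusted p = 0.00108 and 0.00376).

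The sister complexes share the design of pyruvate dehydrogenase, with the 2-oxoglutarate and branched-chain forms among them. Of their 9 genes, 1 was higher and 3 lower with glucose under SRC-1 siRNA, and 0 higher and 3 lower under control siRNA (median -0.019 and -0.12). The 3 that fell under both were the branched-chain subunits BCKDHB, 1.71-fold and 1.60-fold lower, and BCKDHA, with log2 differences of -0.63 and -0.58, and their kinase BCKDK, 1.28-fold and 1.31-fold lower. BCKDK thus moved opposite to PDK3 and PDK4, and PPM1K, the phosphatase of the branched-chain complex, differed by -0.049 ± 0.081 with SRC-1 siRNA and -0.22 ± 0.081 with control siRNA and was not called (adjusted p = 0.666 and 0.0531). Of 11 genes of acetyl-CoA use and export, 9 were tested, 4 higher and 0 lower with SRC-1 siRNA and 4 higher and 1 lower with control siRNA (median 0.14 and 0.064). These 4 were the citrate carrier SLC25A1 (1.59-fold and 1.52-fold higher), ACLY, which splits citrate into acetyl-CoA (1.40-fold and 1.31-fold), the acetate-activating enzyme ACSS2 (1.39-fold and 1.25-fold) and citrate synthase CS (1.28-fold and 1.21-fold). SRC-1 siRNA, averaged over both media, called 0 genes of these 4 lists in limma, where 4 of all 13584 genes were called (0.0294%). With so few calls over all genes, nothing is read from this count.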

How the data were processed

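RNA from 8 cultures was hybridized to Affymetrix arrays as biotinylated cRNA, per the labels' protocols. The deposited table gives log2 signal per probe set, with the base inferred from its range (1.98 to 14.7), and array medians of 4.97 to 5.01 show a common scale. The authors' background correction, summarization and normalization are not given in the sources used here. Of 54675 probe sets, 41091 had 1 gene, 1801 several, 11721 none and 62 were controls, and 41037 of the first matched RefSeq by Entrez identifier. Probe sets with a mean over 8 arrays under the 40th percentile (log2 4.80) were left out, and the brightest per gene was kept (13584 genes), also for lists. All arrays entered 1 limma fit (limma 3.58.1, R 4.3.3) with a mean per group, 4 residual and 4.35 prior degrees of freedom, two-sided moderated tests and Benjamini-Hochberg adjustment over all genes, or over all probe sets in a second fit with no filter. The fit was tested on simulated data. The number of arrays limits the precision (median SE 0.0834), and 2 arrays against 2 cannot give a permutation p under 0.333. The labels do not say how replicate cultures were separated. The p-values reflect array-to-array spread alone, which may be technical. Named genes were all members, up to 4 genes per list with the smallest p for each glucose comparison, and the 5 genes most like PDK4 and PDP1; not every one is printed. The members and lists were chosen with earlier results of these data known. The alternatives are in the closing section.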

Additional observations from a re-analysis of the deposited data

How the results depend on the processing

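The glucose calls of PDK4, PDK3 and PDP1 held in all 18 alternatives under each siRNA. These were quantile normalization, median centring, keeping every dim probe set, dropping those under the 60th percentile, the mean of probe sets, no _s_at or _x_at probe sets, a prior that follows the mean, array weights, only the groups compared, a replicate block and leaving out each of the 8 arrays. PDK4 ranged from 1.78 to 2.07 with SRC-1 siRNA and from 1.85 to 1.96 with control siRNA, PDK3 from 0.75 to 1.16 and from 0.80 to 1.30, and PDP1 from -1.14 to -0.92 and from -1.22 to -1.10. Leaving out an array of the other siRNA cannot move a difference. With control siRNA, both filter choices and dropping _s_at and _x_at probe sets left PDK3 at 1.14 and PDP1 at -1.16. The prior that follows the mean, array weights, the replicate block and the fit of only the groups compared also left them there. PDK4 has 1 probe set over the dim limit, so the choices of filter and probe sets could not move its difference either. Its 2 dim probe sets differed by 1.23 and 0.49 with SRC-1 siRNA and by 0.54 and 0.23 with control siRNA. The genes called with glucose numbered 4 to 7 with SRC-1 siRNA and 3 to 6 with control siRNA, and 0 in every alternative for the SRC-1 siRNA effects and the interaction. The share of all genes called was not taken in each alternative, so these counts have no such share beside them. Without _s_at and _x_at probe sets PDHA1 was called (0.47 with SRC-1 siRNA and 0.30 with control siRNA) and PDK2 was not tested. PDHB with control siRNA was called under quantile normalization, the stricter filter and the prior that follows the mean (adjusted p from 0.0179 to 0.0472). The number of probe sets called with control siRNA lay between 6 and 10 when 1 array was left out. Among values not called, 58 changed sign, none larger than 0.12 in size. The replicate block gave 6 and 4 called genes with SRC-1 and control siRNA, as without it, and 14 and 11 called probe sets, against 13 and 11. Arrays with the same replicate number deviated from their group means with correlations over genes of -0.096 to 0.117, so the number is not taken to pair them. A fit of only the groups compared has no form for the averaged effect and the interaction. The signal of a dim probe set cannot be set against its background here, so its fold may be compressed.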

Other observations

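Genes that regulate PDK4, or that share known regulators with PDK4 or PDK1, were counted beside the share of all genes called with glucose, which was 24.6% higher and 20.0% lower with SRC-1 siRNA and 23.6% and 21.6% with control siRNA. No test was made of any list, and each count is a description. Of 12 factors known to regulate PDK4, 9 were tested, 3 higher and 0 lower with SRC-1 siRNA and 3 higher and 1 lower with control siRNA (median log2 difference -0.045 and -0.0002). The coactivator PPARGC1B was 1.81-fold and 1.63-fold higher, the glucocorticoid receptor NR3C1 1.36-fold and 1.33-fold, and RXRA, the partner of the PPAR receptors, 1.34-fold and 1.32-fold. PPARG went the other way. It differed by -0.17 ± 0.070 with SRC-1 siRNA, which was not called, and by -0.30 ± 0.070 with control siRNA (adjusted p = 0.0884 and 0.00845, limma). Of 13 fatty acid and PPAR target genes, 8 were tested, 1 higher and 2 lower under each siRNA. CPT1A, which brings fatty acids into mitochondria, was 1.41-fold and 1.46-fold higher, whereas the lipid droplet protein PLIN2 fell by 0.58 and 0.47 on the log2 scale and ACADVL, an enzyme of fatty acid oxidation, was 1.32-fold and 1.42-fold lower. Of 14 FOXO targets, 13 were tested, 6 higher and 2 lower with SRC-1 siRNA and 6 higher and 3 lower with control siRNA. SESN3 was 1.77-fold and 1.89-fold higher, and GADD45A, also known as a stress gene, was 4.34-fold and 4.57-fold lower. Of 10 glucocorticoid targets, 8 were tested, 2 higher and 3 lower under each siRNA, with FKBP5 2.17-fold and 2.32-fold higher and TSC22D3 2.54-fold and 2.87-fold lower. Of 13 HIF targets that share PDK1 regulation, 12 were tested, 6 higher and 2 lower with SRC-1 siRNA and 4 higher and 2 lower with control siRNA. EGLN3, an oxygen sensor, was 3.92-fold and 3.20-fold higher, and VEGFA, the vascular growth factor, 2.16-fold and 2.12-fold lower.

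The genes whose signals over the 8 arrays were most like that of PDK4 were PEG10 (Pearson r = 0.998), DOK4 (0.998), SLC39A1 (0.997), TMEM170B (0.997) and RAD1 (0.996). TMEM170B was the one with a glucose difference nearest to that of PDK4 (1.53 with SRC-1 siRNA and 1.61 with control siRNA), and SLC39A1 differed by 0.49 and 0.48. The genes most like PDP1 were AZI2 (0.999), the clock gene BMAL1 (0.999), SLC33A1 (0.998), which carries acetyl-CoA into the ER, the chemokine CXCL8 (0.998) and the phosphatase DUSP6 (0.997). Their differences ran from -1.90 (CXCL8) to -0.62 (BMAL1) with SRC-1 siRNA and from -2.07 (CXCL8) to -0.70 (BMAL1) with control siRNA. The arrays fall into 2 sets by medium, so any gene that differs by medium has a high r, and 1711 genes reached 0.95 with PDK4 and 1519 with PDP1.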
